A study of Mus musculus with 6 samples.

Results

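The 10 genes described here are members of the RGS family, the regulators of G protein signalling, in mouse liver. They are Rgs1, Rgs2, Rgs3, Rgs4, Rgs10, Rgs12, Rgs14, Rgs16, Rgs18 and Rgs19, and they were chosen by name from the rows of a gene count table, with the differences between the genotypes in these libraries already known. Their differences between genotypes are therefore given as a description, with no p-value. They are 10 of 21 Rgs-named family genes in the table, which holds 45706 genes, and all 10 were among the 14069 genes with enough counts to be tested. The series concerns NTPDase8, an ectonucleotidase encoded by Entpd8 that breaks down extracellular nucleotides, and its part in liver ischemia. Liver poly(A) RNA was sequenced from 3 wild-type libraries (WT1, WT2, WT3) and 3 libraries labelled Entpd8 knockout (KO1, KO2, KO3), all from mice kept free of specific pathogens. The labels give no strain, age, sex, treatment or ischemia status for any library, nor the allele or the tissue in which Entpd8 was deleted. Nor do they tie a library to an animal, so errors and p-values measure the spread between these libraries, which may be technical.

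Heterotrimeric G proteins relay signals from receptors at the cell surface while their alpha subunit holds GTP. RGS proteins bind that alpha subunit through a shared RGS domain and speed up GTP hydrolysis, which ends the signal. Many RGS genes are themselves induced by the signals they curb, so their transcripts can change quickly in stimulated cells. In liver, Rgs16 is known as a gene of hepatocytes that responds to fasting and to glucose, whereas Rgs1, Rgs10 and Rgs18 are better known from blood cells. By sequence the family falls into subfamilies, and 6 of the 10 genes (Rgs1, Rgs2, Rgs3, Rgs4, Rgs16 and Rgs18) belong to the R4 subfamily, mostly small proteins with little beyond the RGS domain. Rgs10, Rgs12 and Rgs14 belong to R12, and Rgs19 belongs to RZ.

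In genome build GRCm38 (GENCODE M21), 5 of the 10 genes lie on chromosome 1. Rgs2 (143999338 to 144004161), Rgs1 (144242296 to 144249242) and Rgs18 (144752683 to 144775435) share a cluster of R4 genes on the minus strand with Rgs13 and Rgs21. Rgs16 (plus strand, 153740349 to 153745468) lies 40.0 kb from Rgs8, and Rgs4 (minus strand, 169741477 to 169747642) lies 45.7 kb from Rgs5. The other 5 are on chromosome 2 (Rgs19, 181688419 to 181693977), chromosome 4 (Rgs3, 62559847 to 62704001), chromosome 5 (Rgs12, 34949445 to 35039644), chromosome 7 (Rgs10, 128373621 to 128418758) and chromosome 13 (Rgs14, 55369732 to 55384687). Genes annotated over Rgs3, Rgs10, Rgs12 and Rgs16 had 0 counts in all 6 libraries.

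The stretches before the start sites of Rgs16, Rgs2 and Rgs4 are printed here because these chromosome 1 genes had the 3 highest levels per length among the 10 in knockout livers. RefSeq (GRCm38.p6) gave a start site for 7 of the 10 genes. Each sequence is on the gene's own strand, 5′ to 3′, covers up to 250 bases before the RefSeq start site, and stops before the first annotated base of the gene in GENCODE M21. Capitals mark TGACG, the core of the cAMP response element (read as CGTCA where it lies on the opposite strand), and TATAAA, the TATA box. Rgs16 is chr1:153740103-153740348 on the plus strand, Rgs2 is chr1:144004162-144004399 on the minus strand and Rgs4 is chr1:169747643-169747892 on the minus strand.
Rgs16: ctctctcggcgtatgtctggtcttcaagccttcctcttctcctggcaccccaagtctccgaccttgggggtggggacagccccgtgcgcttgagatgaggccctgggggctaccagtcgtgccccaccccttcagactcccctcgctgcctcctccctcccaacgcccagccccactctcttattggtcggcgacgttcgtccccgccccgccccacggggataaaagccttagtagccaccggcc
Rgs2: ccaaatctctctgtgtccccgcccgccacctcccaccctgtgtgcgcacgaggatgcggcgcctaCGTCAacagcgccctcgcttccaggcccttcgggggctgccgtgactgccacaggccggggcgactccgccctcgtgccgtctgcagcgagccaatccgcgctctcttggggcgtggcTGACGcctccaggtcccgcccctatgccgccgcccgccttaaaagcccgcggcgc
Rgs4: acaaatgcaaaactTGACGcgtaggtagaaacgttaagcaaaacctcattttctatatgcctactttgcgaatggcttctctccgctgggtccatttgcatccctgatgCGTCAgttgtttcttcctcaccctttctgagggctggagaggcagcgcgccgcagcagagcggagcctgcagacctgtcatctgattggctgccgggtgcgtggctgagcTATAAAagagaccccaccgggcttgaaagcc

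Both strands of the 250 bases were searched for the whole cAMP response element (TGACGTCA), for its core TGACG, which the whole element contains, for the E-box (CACGTG), for the TATA box, and for the AP-1, CArG and kappa-B motifs. Rgs16 held none of them in this window. Rgs2 held TGACG at -185 to -181 on the opposite strand and at -67 to -63, counted from the start site. Rgs4 held TGACG at -236 to -232 and, on the opposite strand, at -141 to -137, and a TATA box at -31 to -26. Among the genes not printed, Rgs12 held TGACG at -82 to -78 and the AP-1 motif at -22 to -16. Rgs3 held TATAAA at -100 to -95 in a window and at -177 to -172 in another. The windows of Rgs10 and Rgs19 held none of the motifs. Of all 32851 RefSeq promoter windows of this length, 17.8% held TGACG and 12.4% held TATAAA. The whole cAMP response element was in 1.55%, the E-box in 6.02%, the AP-1 motif in 6.75%, the CArG box in 1.47% and the kappa-B motif in 3.90% of windows. A match describes the letters only, and a window without a match says nothing of the factor.

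Library totals were 32768764 to 46473522 counts. Entpd8 itself was at 39.3 ± 17.0 CPM (counts scaled to a common library total, by TMM) in wild-type and 0.733 ± 0.356 CPM in knockout libraries (SD, n = 3 per group), and the highest knockout library, KO3, had 52 counts against 876 in the lowest wild-type one. Mitochondrially encoded transcripts made up 6.52% to 8.34% of wild-type and 10.1% to 11.7% of knockout counts, and the second principal component (16.6% of the variance) set WT2 apart. The summed markers of hepatocytes, the main cell of liver, were at 68735 to 84428 CPM in wild-type and 71204 to 90644 CPM in knockout libraries. Bulk counts cannot tell fewer cells of a type from less RNA per cell.

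Across the 10 genes, mean CPM of Rgs16 was 10.6 times higher in knockout livers, that of Rgs1, Rgs2, Rgs3, Rgs4 and Rgs18 was 1.80 to 2.67 times higher, and the ratio for Rgs10, Rgs12, Rgs14 and Rgs19 was between 0.743 and 1.10. Mean CPM was higher in knockout livers for 7 and lower for 3 of the 10. Of the 10, 3 (Rgs1, Rgs3 and Rgs16) had an adjusted p under 0.05 with a positive difference, where 9.80% of all tested genes were called higher, and 0 were called lower (edgeR), where 10.6% of all tested genes were. DESeq2 called 4 and limma voom called 2 of the 10. Those 3 were the genes whose 3 knockout libraries all lay above the 3 wild-type libraries, as 18.7% of tested genes did. None of the 10 had all knockout libraries below wild type, as 22.0% of tested genes did. The median log2 fold change (knockout minus wild type) of the 10 was 0.85, against -0.02 for all tested genes. Nothing is read from these shares, since the genes were picked with this comparison in view.

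**Figure D1:**
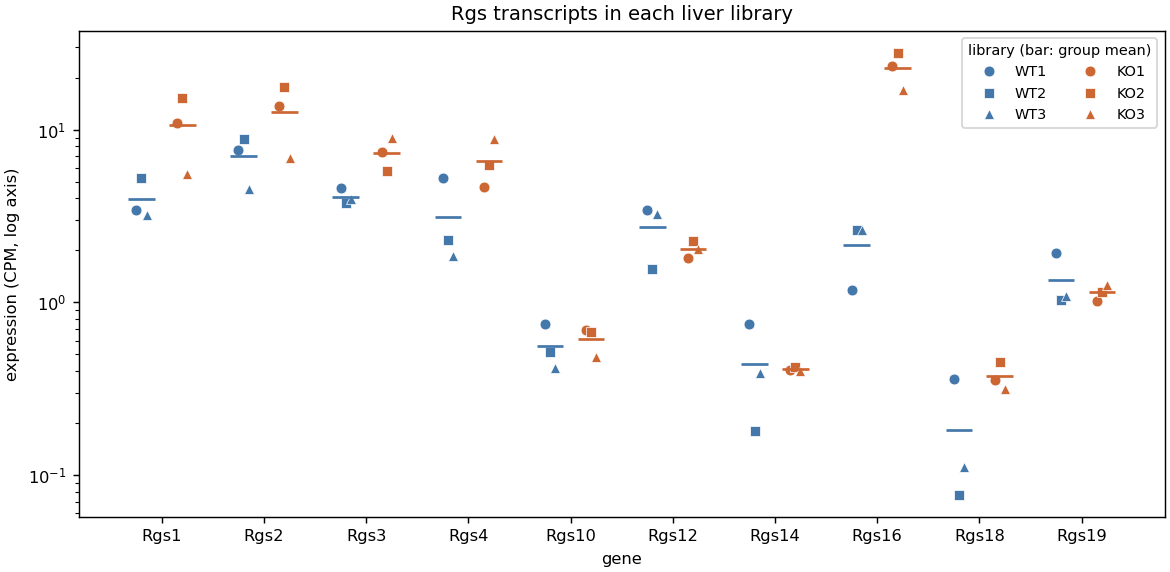
Expression of the 10 Rgs genes in each library, in CPM on a log axis, with wild-type libraries in blue, knockout libraries in orange, marker shape for the library number and bars at the group means. Rgs16 is at 1.18 to 2.61 CPM in wild-type and 17.0 to 27.7 CPM in knockout libraries, with a wide gap between the groups.

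Rgs16 acts on alpha subunits of the Gi and Gq classes. Its CPM values were 1.18, 2.61 and 2.61 in WT1, WT2 and WT3 (43, 102 and 94 counts) and 23.3, 27.7 and 17.0 in KO1, KO2 and KO3 (914, 1111 and 808 counts). The lowest knockout library thus stood well above the highest wild-type one. Means were 2.14 ± 0.824 CPM and 22.6 ± 5.38 CPM (SD, n = 3 per group), a ratio of 10.6. The log2 fold change was 3.40 ± 0.32 (SE), and 30 of the 14069 tested genes had a larger one. The log2 fold change of Rgs16 ran from 3.11 (without WT1) to 3.57 (without WT2 or KO3) when any 1 library was left out.

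Levels of different genes can be compared only per length of transcript, here as CPM per kb of annotated exon. On that scale Rgs16 was the third of the 10 in wild-type livers (0.913 ± 0.352 CPM per kb) and the first in knockout livers (9.68 ± 2.30 CPM per kb, SD, n = 3). In wild type the order began with Rgs2 (1.93 ± 0.610 CPM per kb) and Rgs4 (1.01 ± 0.594 CPM per kb), followed by Rgs16, Rgs19, Rgs1, Rgs3, Rgs10, Rgs12, Rgs14 and Rgs18. In that order, neighbouring genes had overlapping ranges over the 3 libraries except Rgs1 against Rgs3 and Rgs12 against Rgs14. In knockout livers the order was Rgs16, Rgs2, Rgs4, Rgs1, Rgs3, Rgs19, Rgs10, Rgs12, Rgs18 and Rgs14, and Rgs16 did not overlap Rgs2 (3.50 ± 1.51 CPM per kb). Rgs19 against Rgs10, Rgs10 against Rgs12 and Rgs18 against Rgs14 did not overlap either.

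The summed level of the 10 genes per length was 6.25 ± 1.12 CPM per kb in wild-type and 18.9 ± 3.99 CPM per kb in knockout livers (SD, n = 3). Rgs16 made up 15.5 ± 7.74% of this sum in wild type and 51.0 ± 2.16% in knockout livers. By library, its share was 6.95%, 17.4% and 22.1% in WT1, WT2 and WT3 and 52.8%, 51.6% and 48.6% in KO1, KO2 and KO3. Without Rgs16, the sum of the other 9 was 5.34 ± 1.42 CPM per kb in wild-type and 9.23 ± 1.73 CPM per kb in knockout livers. Rgs5, which is not among the 10, was at 7.01 ± 3.46 CPM per kb in wild-type and 4.03 ± 1.97 CPM per kb in knockout livers (SD, n = 3). In wild type its mean lay above the mean sum of the 10, by less than either SD. The sums and shares given here are therefore of the 10 genes, not of all Rgs transcripts. Annotated exon length counts every isoform, so the long gene models of Rgs3 (10801 bases), Rgs12 (8487 bases) and Rgs1 (6947 bases) can be placed too low. For Rgs1 that length equals the whole span of the gene. The sums and shares carry the same limit.

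Rgs1, which dampens chemokine receptor signals in lymphocytes and other leukocytes, was at 3.44, 5.28 and 3.19 CPM in WT1, WT2 and WT3 and at 11.0, 15.3 and 5.55 CPM in KO1, KO2 and KO3. The groups did not overlap, but KO3 was close to WT2. The log2 fold change of Rgs1 was 1.41 ± 0.37 (SE), between 1.05 without KO2 and 1.72 without KO3. Its call was lost without WT1, WT3, KO1 or KO2, with no low-count filter and in limma voom. Rgs2, which acts mainly on Gq alpha subunits, was at 7.66, 8.84 and 4.55 CPM in WT1, WT2 and WT3 and at 13.7, 17.6 and 6.81 CPM in KO1, KO2 and KO3. KO3 lay below WT1 and WT2, so the groups overlapped, with a log2 fold change of 0.85 ± 0.37. Rgs2 ran from 0.55 without KO2 to 1.16 without KO3.

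Rgs1 and Rgs2 shared the order of their libraries in both groups. In each group the library numbered 2 was the highest and the library numbered 3 the lowest. The ratio of Rgs1 to Rgs2 CPM was 0.450, 0.597 and 0.701 in WT1, WT2 and WT3 and 0.800, 0.868 and 0.815 in KO1, KO2 and KO3. All 3 knockout ratios were above the 3 wild-type ratios and lay closer together, and nothing is read from this. In knockout libraries Rgs16 and the hepatocyte marker sum followed the same order, the sum being 85554, 90644 and 71204 CPM in KO1, KO2 and KO3. In WT1, WT2 and WT3 that sum was 84428, 72929 and 68735 CPM, another order. The part of cell composition in these patterns was not tested.

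Rgs18, the remaining gene of the chromosome 1 cluster with counts, is a platelet and megakaryocyte gene and was scarce. It had 13, 3 and 4 counts in WT1, WT2 and WT3 and 14, 18 and 15 counts in KO1, KO2 and KO3, or 0.182 ± 0.154 CPM and 0.373 ± 0.0682 CPM (SD, n = 3). WT1, at 0.358 CPM, lay within the knockout range of 0.315 to 0.449 CPM, and Rgs18 passed the filter on low counts through the 3 knockout libraries and WT1. The log2 fold change of Rgs18 was 1.03 ± 0.58 (SE), 1.95 without WT1 and 0.66 without WT2. The 9 platelet and megakaryocyte markers, of which 3 could be tested and 0 were called (edgeR; 2 had an unadjusted p under 0.05, and DESeq2 called 2 and limma voom 1), summed to 6.59, 3.66 and 3.11 CPM in WT1, WT2 and WT3 and to 7.53, 7.85 and 7.59 CPM in KO1, KO2 and KO3. None of these 9 markers was at 0 in all libraries, and as for Rgs18 itself, WT1 was the highest wild-type library. Their part in the Rgs18 values was not tested.

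Blood cell markers, read beside Rgs1, Rgs10, Rgs14 and Rgs19, moved in different directions. The 11 T and NK cell markers summed to 1.61 to 2.23 CPM in wild-type and 4.30 to 4.94 CPM in knockout libraries, and 2 of 8 tested, Cd3g and Trbc2, rose. Without KO1 0 of these were called, DESeq2 called 1, without WT2 4 were called, and 7 of 8 were higher at an unadjusted p under 0.05. The 7 B cell markers summed to 0.359 to 0.972 CPM and 1.02 to 1.79 CPM, and the 1 tested marker was called by none of edgeR, DESeq2 and limma voom, nor was its unadjusted p under 0.05. The 5 plasma cell markers summed to 0.937 to 4.72 CPM and 7.74 to 11.1 CPM, with 2 tested and Jchain higher. Kupffer cell markers, those of the resident liver macrophages, went the other way. Their 10 genes summed to 140 to 311 CPM in wild-type and 70.9 to 99.6 CPM in knockout libraries. In edgeR 6 of 10 fell, 1 of 10 without KO1 and 9 of 10 without WT2. DESeq2 called 9 lower and limma voom 5, and 9 were lower at an unadjusted p under 0.05. Of all tested genes 9.80% were called higher and 10.6% lower in edgeR. Neutrophil markers (12 genes, 11 tested) overlapped between groups at 21.9 to 134 CPM and 94.0 to 129 CPM, and so did the 6 monocyte markers, all tested, at 12.8 to 45.8 CPM and 37.3 to 51.9 CPM. In edgeR 0 neutrophil and 0 monocyte markers were called, with 1 of each at an unadjusted p under 0.05. DESeq2 called 1 of each and limma voom 1 and 0, and without WT1 edgeR called 6 neutrophil and 3 monocyte markers higher. No gene of these lists was at 0 in all 6 libraries, and the part of these cells in the Rgs values was not tested.

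Rgs3 and Rgs4 had the other R4 differences. Rgs3, an R4 member that also has long isoforms, was at 4.60, 3.74 and 3.94 CPM in WT1, WT2 and WT3 and at 7.46, 5.73 and 8.90 CPM in KO1, KO2 and KO3. Its groups did not overlap and its wild-type values lay close together. The log2 fold change of Rgs3 was 0.85 ± 0.21 (SE), between 0.69 without KO3 and 0.999 without KO2. Its call was lost without WT2, WT3, KO1 or KO3 and with library totals alone. Rgs4, a short-lived protein best known from brain and heart, was at 5.24, 2.28 and 1.86 CPM in WT1, WT2 and WT3 and at 4.66, 6.26 and 8.81 CPM in KO1, KO2 and KO3. WT1 lay above KO1, so the groups overlapped. The log2 fold change of Rgs4 was 1.07 ± 0.42, and without WT1 it was 1.66.

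Rgs3 and Rgs4 were highest in KO3, the knockout library with the lowest Rgs1, Rgs2 and Rgs16. Biliary epithelium markers were highest there too. So were those of stellate cells and pericytes, sinusoidal endothelium, monocytes, and T and NK cells. The other cell type lists were highest in KO2. The 5 biliary genes, all tested, summed to 80.4 to 109 CPM in wild-type libraries and to 199, 122 and 312 CPM in KO1, KO2 and KO3. Krt19 and Epcam rose, where 9.80% of all tested genes were called higher and 10.6% lower. The 9 stellate cell and pericyte markers, all tested, summed to 179 to 240 CPM in wild type and to 166, 116 and 246 CPM in KO1, KO2 and KO3, with 0 called higher and 1 (Col1a1) lower. The 8 sinusoidal endothelial markers, all tested, overlapped between groups, with 1 (Stab1) called lower. They summed to 161 to 210 CPM in wild type and to 150, 128 and 194 CPM in KO1, KO2 and KO3. No stellate cell and pericyte marker was called without WT1, WT3, KO1 or KO2. No sinusoidal endothelial marker was called without WT1, WT2, KO1 or KO2. None of these markers was at 0 in all libraries, and their part in the Rgs3 and Rgs4 values was not tested.

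**Figure D2:**
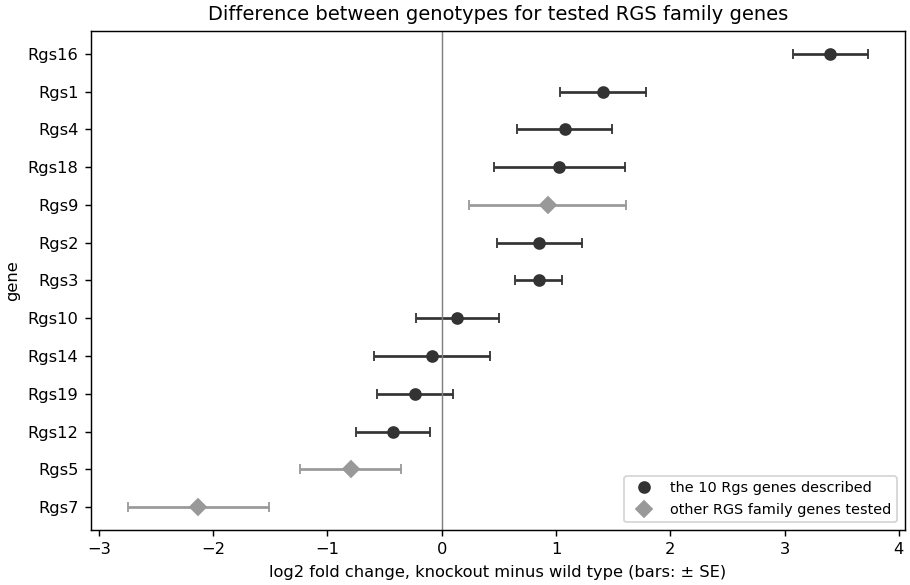
Log2 fold change (knockout minus wild type) with its standard error for the 10 Rgs genes (black circles) and the other 3 tested RGS family genes (grey diamonds). The R4 genes of the 10 lie at 0.85 or above, with Rgs16 at 3.40, and Rgs10, Rgs12, Rgs14 and Rgs19 lie near 0. Rgs5, an R4 gene outside the 10, lies at -0.80.

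Of the 10, the 4 genes outside the R4 subfamily had log2 fold changes from -0.43 to 0.14, while the 6 R4 genes ran from 0.85 to 3.40. Rgs5, an R4 gene outside the 10, was at -0.80 ± 0.44 (SE). Of the 6, 3 were called higher, where 9.80% of all tested genes were (edgeR). Nothing is read from this split, since the genes were picked with this comparison in view. Rgs12, a large scaffold-like protein, was at 3.42, 1.56 and 3.25 CPM in WT1, WT2 and WT3 and at 1.81, 2.27 and 2.04 CPM in KO1, KO2 and KO3. The knockout libraries all lay between WT2 and the other 2 wild-type libraries, and its log2 fold change was -0.43 ± 0.32 (SE), -0.71 without WT2 and -0.24 without WT1. Rgs14, which also binds inactive Gi alpha subunits, had 27, 7 and 14 counts in WT1, WT2 and WT3 and 16, 17 and 19 counts in KO1, KO2 and KO3. The wild-type libraries spread on both sides of the knockout ones (0.437 ± 0.285 CPM against 0.410 ± 0.0123 CPM, SD, n = 3), with a log2 fold change of -0.09 ± 0.51.

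Rgs10, which acts on Gi class subunits and is known from macrophages and microglia, had 27, 20 and 15 counts in WT1, WT2 and WT3 and 27, 27 and 23 counts in KO1, KO2 and KO3. These overlapped, with a log2 fold change of 0.14 ± 0.36 (SE). Rgs19, also called GAIP, was at 1.93, 1.02 and 1.08 CPM in WT1, WT2 and WT3 and at 1.02, 1.15 and 1.26 CPM in KO1, KO2 and KO3. Its log2 fold change was -0.23 ± 0.33, and WT1 alone lay above all knockout libraries. The sign of the difference changed without WT1 for Rgs14 (0.53) and Rgs19 (0.11) and without WT3 for Rgs10 (-0.04), so none of these 3 has a settled direction. Differences of this size were within the spread between libraries and not detectable with 3 libraries per group.

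Among the wild-type libraries, WT1 had the highest CPM for 7 of the 10 genes, namely Rgs3, Rgs4, Rgs10, Rgs12, Rgs14, Rgs18 and Rgs19. WT2 had the highest for the other 3, Rgs1, Rgs2 and Rgs16, and WT1 had the lowest Rgs16. Neutrophil and monocyte marker sums were also highest in WT1, at 134 and 45.8 CPM, against 46.4 and 25.3 CPM in WT2 and 21.9 and 12.8 CPM in WT3. The same held for the sums of platelet, Kupffer cell, stellate cell, biliary epithelium and hepatocyte markers. Those of T and NK cells, B cells, plasma cells and sinusoidal endothelium were highest in WT2 or WT3. Among the knockout libraries, KO2 was the highest for 6 genes and KO3 the lowest for 6. The part of these marker sums in the Rgs values was not tested.

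**Figure D3:**
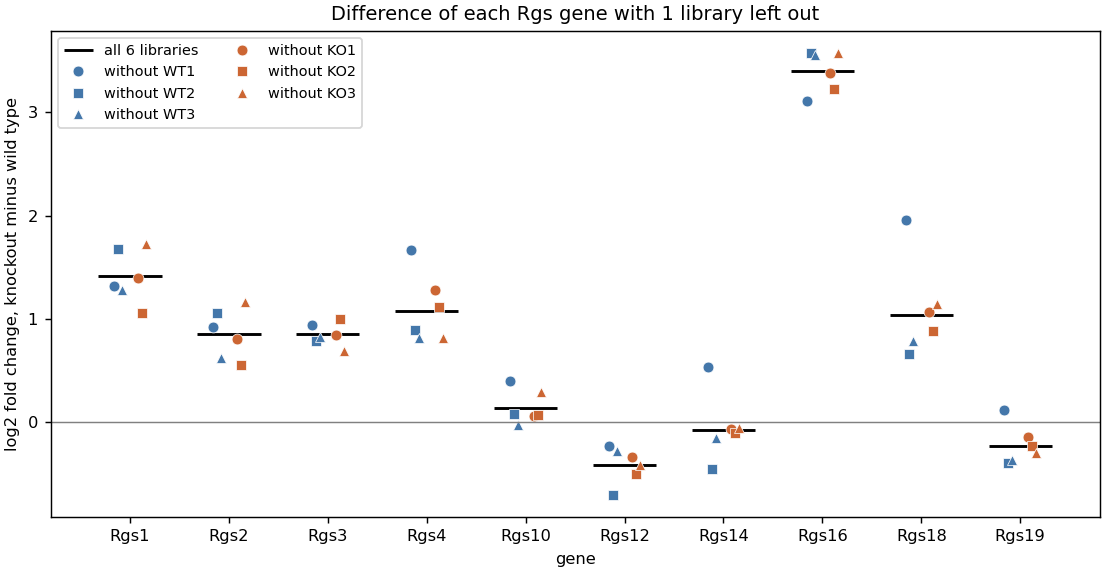
Log2 fold change (knockout minus wild type) of each of the 10 Rgs genes with all 6 libraries (black bars) and with 1 library left out (blue for a wild-type, orange for a knockout library). Rgs16 stays between 3.11 and 3.57, whereas Rgs18 goes from 1.03 to 1.95 and Rgs4 from 1.07 to 1.66 without WT1.

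Of the other 11 Rgs-named genes, 8 had too few counts to be tested, and Rgs13, Rgs21 and Rgs22 had 0 counts in all 6 libraries. Rgs5, an R4 gene of pericytes and vascular smooth muscle, is the neighbour of Rgs4 and went the other way in mean. It was at 49.5, 19.2 and 26.9 CPM in WT1, WT2 and WT3 and at 15.9, 10.8 and 28.2 CPM in KO1, KO2 and KO3, and did not pass the test (log2 fold change -0.80 ± 0.44, adjusted p = 0.246, edgeR quasi-likelihood test). The ratio of Rgs4 to Rgs5 CPM was 0.106, 0.119 and 0.0691 in WT1, WT2 and WT3 and 0.293, 0.580 and 0.312 in KO1, KO2 and KO3. These ratios did not overlap between groups, though each gene alone did. Nothing is read from this, since the means of the genes were known to differ in opposite directions. Rgs7, an R7 gene known from neurons, fell from 20, 13 and 11 counts to 4, 6 and 1 (log2 fold change -2.13 ± 0.61, adjusted p = 0.0440, edgeR). It entered the test only through the wild-type libraries, and the call was lost without any 1 of the 6 libraries. Rgs9, an R7 gene of retina and striatum, had 4, 11 and 1 counts in wild-type and 6, 13 and 16 counts in knockout libraries (log2 fold change 0.93 ± 0.69, adjusted p = 0.373, edgeR).

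By the smallest root mean square difference of centred log2 CPM over the 6 libraries, among 10385 other genes with a mean log2 CPM of at least 1, the genes most like Rgs16 were Ackr2, Fam13a and Hsd3b5. The difference was 0.30 for Ackr2, a scavenging receptor for chemokines, 0.31 for Fam13a and 0.38 for Hsd3b5, a steroid-metabolising enzyme of male mouse liver. Mean levels in wild-type against knockout libraries were 2.15 ± 0.621 against 19.6 ± 5.68 CPM for Ackr2 (SD, n = 3 per group), 3.01 ± 1.46 against 27.3 ± 5.34 CPM for Fam13a and 20.1 ± 11.7 against 154 ± 70.7 CPM for Hsd3b5. Since the genes were picked for their likeness to Rgs16 in these same libraries, their higher level in knockout and their shared order (KO2, KO1, KO3) follow from that choice.

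The rest of the pathway was read from lists of other genes, with adjusted p-values from the edgeR quasi-likelihood test over all genes tested. Of 15 further genes with an RGS homology domain, 14 were tested, 1 rose and 3 fell, with a list median of -0.28. The shares over all tested genes were 9.80% called higher and 10.6% called lower. The receptor kinase Grk5 rose from 5.28 ± 0.787 to 8.74 ± 0.788 CPM (log2 fold change 0.73 ± 0.17, adjusted p = 0.0239, SD and SE, n = 3 per group, edgeR). The kinase Grk3 fell from 5.47 ± 1.13 to 2.25 ± 0.859 CPM (log2 fold change -1.28 ± 0.30, adjusted p = 0.0240, edgeR) and the sorting nexin Snx25 from 14.9 ± 1.55 to 8.81 ± 0.981 CPM (-0.76 ± 0.15, adjusted p = 0.0132, edgeR). The receptor kinase Grk4 fell too (log2 fold change -1.21 ± 0.33). Arhgef1, a guanine nucleotide exchange factor, did not pass (-0.43 ± 0.16, adjusted p = 0.0872, edgeR). Snx25 shares exon bases with Cfap97 on the other strand, and the sources used here do not say whether strands were kept apart. Calls were lost without WT3, KO1 or KO3 for Grk5, without WT1, WT3, KO1 or KO3 for Grk3, without KO1 for Snx25, and without any 1 library other than WT2 for Grk4.

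Of 13 alpha subunits, on which RGS proteins act, 10 were tested, 1 rose and 1 fell, where 9.80% of all tested genes were called higher and 10.6% lower. Gna13 rose by 0.48 ± 0.14 (log2 fold change ± SE, adjusted p = 0.0474, edgeR) and Gnaq, a main target of Rgs2, fell by 0.47 ± 0.11 on the log2 scale (adjusted p = 0.0246, edgeR). Mean CPM of Gnaq was 29.7 ± 1.84 in WT and 21.5 ± 1.48 in KO libraries (SD, n = 3). Gnai1 (log2 fold change 1.01 ± 0.40) and the stimulatory subunit Gnas (0.35 ± 0.14) did not pass in edgeR, and DESeq2 called both, with 3 alpha subunits higher and 1 lower in all. The Gna13 call was lost with upper-quartile scaling, with library totals alone and without any 1 library other than WT2, and the Gnaq call without WT1, KO1 or KO2. Of 17 beta and gamma subunits 10 were tested and 0 were called by edgeR, DESeq2 or limma voom, with 0 at an unadjusted p under 0.05. Gngt2, Gng5, Gng11 and Gnb4 had log2 fold changes of -0.65 ± 0.30, 0.23 ± 0.12, 0.30 ± 0.21 and -0.35 ± 0.26.

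Of 10 arrestins, chaperones and other modulators of G proteins, 9 were tested, 3 fell and 0 rose, with a list median of -0.47. Over all tested genes, 10.6% were called lower and 9.80% higher. Ric8a, a chaperone and exchange factor of alpha subunits, fell from 29.6 ± 2.06 to 21.7 ± 0.767 CPM (SD, n = 3 per group). On the log2 scale this was a change of -0.45 ± 0.11 (SE, adjusted p = 0.0244, edgeR), its relative Ric8b had -0.51 ± 0.15 and Pdcl, a chaperone of beta and gamma subunits, -0.53 ± 0.14. Gpsm2, which binds inactive Gi alpha subunits, did not pass (-0.66 ± 0.30). Ric8a shares exon bases with Bet1l and Sirt3 on the other strand. All 3 calls were lost without WT3, KO1, KO2 or KO3, that of Pdcl also without WT2, and that of Ric8b also without WT1 or WT2, with RLE size factors and with no low-count filter.

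Among 34 effectors downstream of G proteins, 31 were tested, 1 rose and 3 fell, with a list median of -0.14. For all tested genes the shares called were 9.80% higher and 10.6% lower. Pde4b, a phosphodiesterase that degrades cAMP, rose from 10.7 ± 2.49 to 83.7 ± 37.2 CPM (log2 fold change 2.97 ± 0.36, adjusted p = 0.00451, SD and SE, n = 3 per group, edgeR). The calcium release channels Itpr1 (-1.02 ± 0.20) and Itpr2 (-0.52 ± 0.12) and the protein kinase C gene Prkce (-0.54 ± 0.14) fell. Itpr1 lost its call without KO1, Itpr2 without WT1, KO1 or KO3, and Prkce without any 1 library other than WT1.

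Of 48 listed G protein-coupled receptors, 41 were tested, 8 rose and 5 fell, with a list median of 0.25. Of all tested genes 9.80% were called higher and 10.6% lower, and without KO1 the receptor counts were 4 higher and 0 lower. The succinate receptor Sucnr1 rose from 3.08 ± 0.590 to 29.3 ± 3.44 CPM (log2 fold change 3.25 ± 0.18, adjusted p = 2.65e-04, SD and SE, n = 3 per group, edgeR). S1pr3, a sphingosine-1-phosphate receptor (log2 fold change 1.63 ± 0.16), and Adra1b, the main alpha-1 adrenergic receptor of mouse hepatocytes (1.16 ± 0.15), rose as well, and both couple to Gq. Vipr1, a receptor for vasoactive intestinal peptide, fell from 22.1 ± 4.88 to 11.1 ± 1.80 CPM (log2 fold change -0.996 ± 0.19), a call lost without KO1. Receptors that rose also included S1pr1, Lpar2, F2rl1 and Avpr1a, and the others that fell were S1pr2, Pth1r, Adora1 and Fpr1.

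A further list held genes known to be induced in liver by cAMP, the second messenger that Gs raises and Gi lowers. All 12 listed were tested, 7 rose and 1 fell, with a list median of 1.61. Among all tested genes, 9.80% were called higher and 10.6% lower. Without KO1, and also without KO2, 5 of the 12 were called higher and 0 lower. Dusp1 rose by 2.55 ± 0.25, Fos by 2.97 ± 0.33, Nr4a1 by 2.94 ± 0.38 and Sik1 by 1.19 ± 0.26 on the log2 scale (SE, adjusted p = 0.00187, 0.00325, 0.00531 and 0.0197, edgeR), and Nr4a2, Nr4a3 and G6pc rose too. Pck1, the gluconeogenic enzyme of this list, fell by 0.74 ± 0.22 on the log2 scale, a call lost with RLE size factors and without any 1 library other than WT2. Crem, Ppargc1a, Tat and Per1 of this list were not called. Several genes of the list respond to many other signals, and the part of cAMP in their values was not tested. Dusp1 shares exon bases with Ergic1 on the other strand, and Sik1 lost its call without any 1 knockout library.

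Of 12 genes of the carbohydrate response driven by ChREBP, a glucose-sensing factor, all were tested, 10 rose and 0 fell, with a list median of 0.98. Among all tested genes, 9.80% were called higher and 10.6% lower. ChREBP is known to act on Rgs16, but its part in the values of Rgs16 and of this list was not tested. Fasn rose by 1.81 ± 0.20, Txnip by 2.01 ± 0.24, Pklr, the liver pyruvate kinase, by 1.05 ± 0.15 and Tkfc by 0.81 ± 0.13 on the log2 scale (SE, adjusted p = 0.00227, 0.00364, 0.00531 and 0.00752, edgeR). Mean CPM of Txnip was 27.6 ± 1.36 in WT and 111 ± 39.9 in KO libraries (SD, n = 3). Tkfc shares exon bases with Ddb1 on the other strand. Without KO1, 5 of these genes were called higher.

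**Figure D4:**
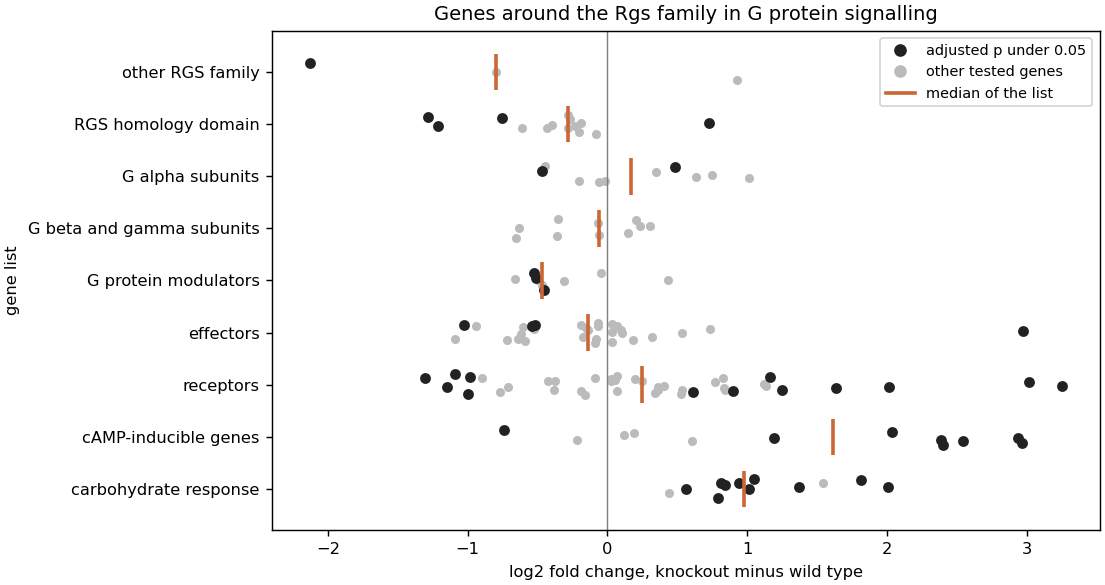
Log2 fold change (knockout minus wild type) of each tested gene in the 9 lists around the 10 Rgs genes, with genes at an adjusted p under 0.05 in black, other tested genes in grey and an orange bar at the median of each list. The medians of the cAMP-inducible and carbohydrate response lists are 1.61 and 0.98, and those of the alpha, beta and gamma subunit lists lie near 0.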

How the data were processed

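Poly(A) RNA of 6 mouse liver samples was sequenced from NEBNext Ultra II libraries, per the labels' protocols. The tools Trim Galore, STAR and Salmon and build GRCm38 come from the submitters' processing notes, and for their versions, order and strand setting the sources used here give nothing. Values deposited by the authors are expected counts per gene, not normalized, as 8.38% to 9.32% of genes per library were not whole. They were rounded to whole counts. Samples were grouped by their titles. Of 45706 genes, 45143 matched a symbol. Promoters came from RefSeq (GRCm38.p6) and gene positions from GENCODE M21.

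Genes were filtered with filterByExpr, scaled by TMM and tested on genotype with the quasi-likelihood test in edgeR 4.0.16 (two-sided, robust, R 4.3.3), with Benjamini-Hochberg adjustment over 14069 genes and a threshold of 0.05. SE is the log2 fold change over the square root of F. The members and lists were chosen with earlier results of these data known. Up to 4 genes per list, by lowest p at a mean log2 CPM of at least 0, are named with values, and called genes beyond these were named after their values were seen. In simulated counts (13711 genes) the fit recovered 88.0% of 3-fold and 7.00% of 1.5-fold changes, and called 9 of 13511 unchanged genes. Changes were put only into genes above a wild-type level that Rgs10, Rgs14 and Rgs18 did not reach, so the recovery rates do not cover these genes. Library pairs within a group differed by 34.1 to 139 times counting noise. Alternatives were 3 scalings, 2 filters, DESeq2 1.42.0, limma 3.58.1 voom, non-robust estimation, a replicate block and leaving out each library. Figures used matplotlib 3.10.9. Not every gene of the lists is reported here.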

Additional observations from a re-analysis of the deposited data

How the results depend on the processing

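Each result was recomputed under 15 alternatives. Across the 6 fits without 1 library, genes called ran from 603 to 3080 in all, from 385 to 1390 higher and from 218 to 1690 lower, against 2871, 1379 and 1492 with all libraries. In the same fits the number of the 10 Rgs genes called ran from 1 to 3, and that of the 142 tested genes of the 9 pathway and family lists from 15 to 47, against 3 and 45. The lowest values were those without KO1 (and, for the Rgs genes, also without WT3). Same-numbered libraries did not deviate together (r = -0.0762, 0.0126 and -0.0853 over genes for numbers 1, 2 and 3), so the numbers pair nothing by this check. With the replicate number as a block, 1468 genes were called, 807 higher and 661 lower, with 27 of the pathway genes, and Rgs1, Rgs2 and Rgs16 were the Rgs genes called. The cause of these changes was not tested. Mean CPM was higher in knockout for 7 of the 10 under RLE, upper-quartile and total-count scaling. Without WT1, the log2 fold changes of Rgs18, Rgs4, Rgs14 and Rgs19 each moved by more than their SE, to 1.95, 1.66, 0.53 and 0.11. The smallest exact permutation p (two-sided) that 3 against 3 allows is 0.1. Rgs10, Rgs14 and Rgs18, at 3 to 27 counts per library, are also limited by counting error.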
